A study of Homo sapiens with 3 samples.

Results

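The heterotrimeric G proteins and adenylyl cyclases, the relay that carries signals from G protein-coupled receptors to cyclic AMP, were followed in SH-SY5Y, a human neuroblastoma cell line. Members were the protein-coding genes of the G protein alpha, beta and gamma subunits and of the adenylyl cyclases, chosen by gene symbol in GENCODE 29. The rule used no measured value, but earlier results of these data were known when it was set. Of 60660 genes in the table, 43 were members: 16 alpha, 5 beta and 12 gamma subunit genes and 10 adenylyl cyclase genes. GNG14, also annotated, was not analysed here. The study holds 3 libraries of 1 group, replicates 1, 2 and 3, each from its own flask of adherent cells at about 60% confluency. The cells carried no treatment or engineered allele that the labels name, and SH-SY5Y is a line grown in culture, so the libraries show how flasks of that line vary and not how patients' tumours do. With no second group, the measurements are levels: each gene was set against a fixed level of 1 FPKM (fragments mapped to a gene, scaled to transcript length and library size), and genes were compared with each other within a library. Errors are SDs over the 3 libraries (n = 3).

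A receptor bound by its ligand makes the alpha subunit exchange GDP for GTP, and the alpha subunit and the beta-gamma dimer then act on separate effectors. Alpha s and its olfactory relative stimulate adenylyl cyclase, alpha i and its relatives inhibit it, alpha q opens the phospholipase C-beta route to calcium, and alpha 12 and 13 act on exchange factors that steer the cytoskeleton. Cyclic AMP activates protein kinase A and the exchange factor EPAC, and in cells of the sympathetic lineage it is known for driving neurite growth and catecholamine genes. The relay is well known in neurons for fast inhibition, since alpha o is abundant in brain and free beta-gamma dimers open potassium channels and slow calcium channels.

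The last codons of an alpha subunit encode the tail that touches the receptor. The sequences below are the last 30 coding bases, stop codon included, of the alpha subunits at or above 1 FPKM, read from GENCODE 29 transcripts on GRCh38. Capitals mark the codon 4 from the end, which is a cysteine codon in the subunits that pertussis toxin can modify.
GNAO1 (chr16:56355024-56355053, plus strand): aacaacctccggggcTGCggcttgtactga
GNAI1 (chr7:80217464-80217493, plus strand): aataatctaaaagatTGTggtctcttttaa
GNAI2 (chr3:50257661-50257690, plus strand): aacaacctgaaggacTGCggcctcttctga
GNAI3 (chr1:109592204-109592233, plus strand): aacaacttaaaggaaTGTggactttattga
GNAZ (chr22:23123402-23123431, plus strand): aacaatctcaagtacATTggcctttgctga
GNAS (chr20:58910800-58910829, plus strand): atgcaccttcgtcagTACgagctgctctaa
GNAQ (chr9:77721323-77721352, minus strand): ttgaacctgaaggagTACaatctggtctaa
GNA11 (chr19:3121150-3121179, plus strand): ctcaacctcaaggagTACaacctggtctga
GNA13 (chr17:65014257-65014286, minus strand): gacaacctcaagcagCTTatgctacagtga
GNA12 (chr7:2731181-2731210, minus strand): gagaacctgaaggacATCatgctgcagtga
The marked codon is a cysteine codon in GNAO1, GNAI1, GNAI2 and GNAI3, an isoleucine codon in GNAZ and GNA12, a tyrosine codon in GNAS, GNAQ and GNA11, and a leucine codon in GNA13. GNAQ and GNA11 shared 25 of these 30 bases, GNAI1 and GNAI2 21 of 30, and GNAS and GNAO1 15 of 30. Within the inhibitory class, GNAZ and GNAO1 shared 19 of 30. GNAI1 and GNAO1 shared 15 of 30, the same count as GNAS and GNAO1.

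The end of a gamma subunit is its lipid anchor site, and the last codon decides which lipid is attached. A final leucine calls for a geranylgeranyl group and a final serine for the shorter farnesyl group. The last 30 coding bases of the 5 highest gamma genes follow in the same way, with the final codon before the stop in capitals.
GNG4 (chr1:235552109-235552138, minus strand): gagaagaagttcttttgtaccattCTCtaa
GNG5 (chr1:84501845-84501874, minus strand): agaccccagaaagtctgttcctttTTGtag
GNG8 (chr19:46634076-46634105, minus strand): gacaagcgcctcttttgtgttctgCTCtga
GNG2 (chr14:51966658-51966687, plus strand): gagaagaagtttttctgtgccatcCTTtaa
GNG11 (chr7:93926187-93926216, plus strand): aaagaaaaaggcagctgtgttattTCAtaa
GNG11 ends on a serine codon and the other 4 on leucine codons, so the 4 highest gamma genes all belong to the geranylgeranyl type. GNG4 and GNG2 shared 25 of the 30 bases, and GNG5 and GNG2 shared 13. Among the lower gamma genes, GNGT1 and GNGT2, the rod and cone forms, also end on serine codons.

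The depth of the libraries, estimated from the steps between low values, was about 21700000, 28500000 and 43700000 reads in replicates 1, 2 and 3, and 3 reads on 1 kb of effective transcript correspond to 0.138, 0.105 and 0.0686 FPKM. The identity of the cells was checked on marker lists: all 10 noradrenergic neuroblastoma markers, DBH and GATA3 among them, were called above 1 FPKM, with means between 103 FPKM (ISL1) and 2405 FPKM (STMN2). No blood cell, endothelial, epithelial or Schwann cell and glial marker of 19 was called above, and CD3E, HBB, CDH5, KRT5 and KRT14 were listed at 0. Of 11 photoreceptor markers 2 were called above, PDE6B and GUCA1A, 7 were called below and RCVRN was listed at 0, with a summed level between 14.8 and 16.9 FPKM. PLCB2 was called above among 6 olfactory and taste cell markers (summed 2.11 to 3.68 FPKM, CNGA2 listed at 0), and 4 of 5 fibroblast markers (COL1A1, DCN, LUM and PDGFRB) were called above (summed 50.1 to 57.2 FPKM). The part of these other markers in the levels below was not tested.

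Of the 43 members, 30 were called above 1 FPKM and 9 below by limma's moderated test with Benjamini-Hochberg adjustment over all genes tested. Another, ADCY8, was called neither, and 3 (GNA15, GNAT3 and GNGT2) were listed at 0 in every library and not tested. Among all protein-coding genes tested, 70.6% were called above and 24.6% below, and among all genes tested 45.5% were called above and 43.7% below. Genes listed at 0 in every library are left out of those shares, and without them 30 of 40 members tested were called above. What sets the members apart from each other is the range, which ran from 0 to 1916 FPKM. Their median was 12.4 FPKM, beside 5.40 FPKM for all 19680 protein-coding genes and 9.14 for the 16753 with a value above 0.

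**Figure D1:**
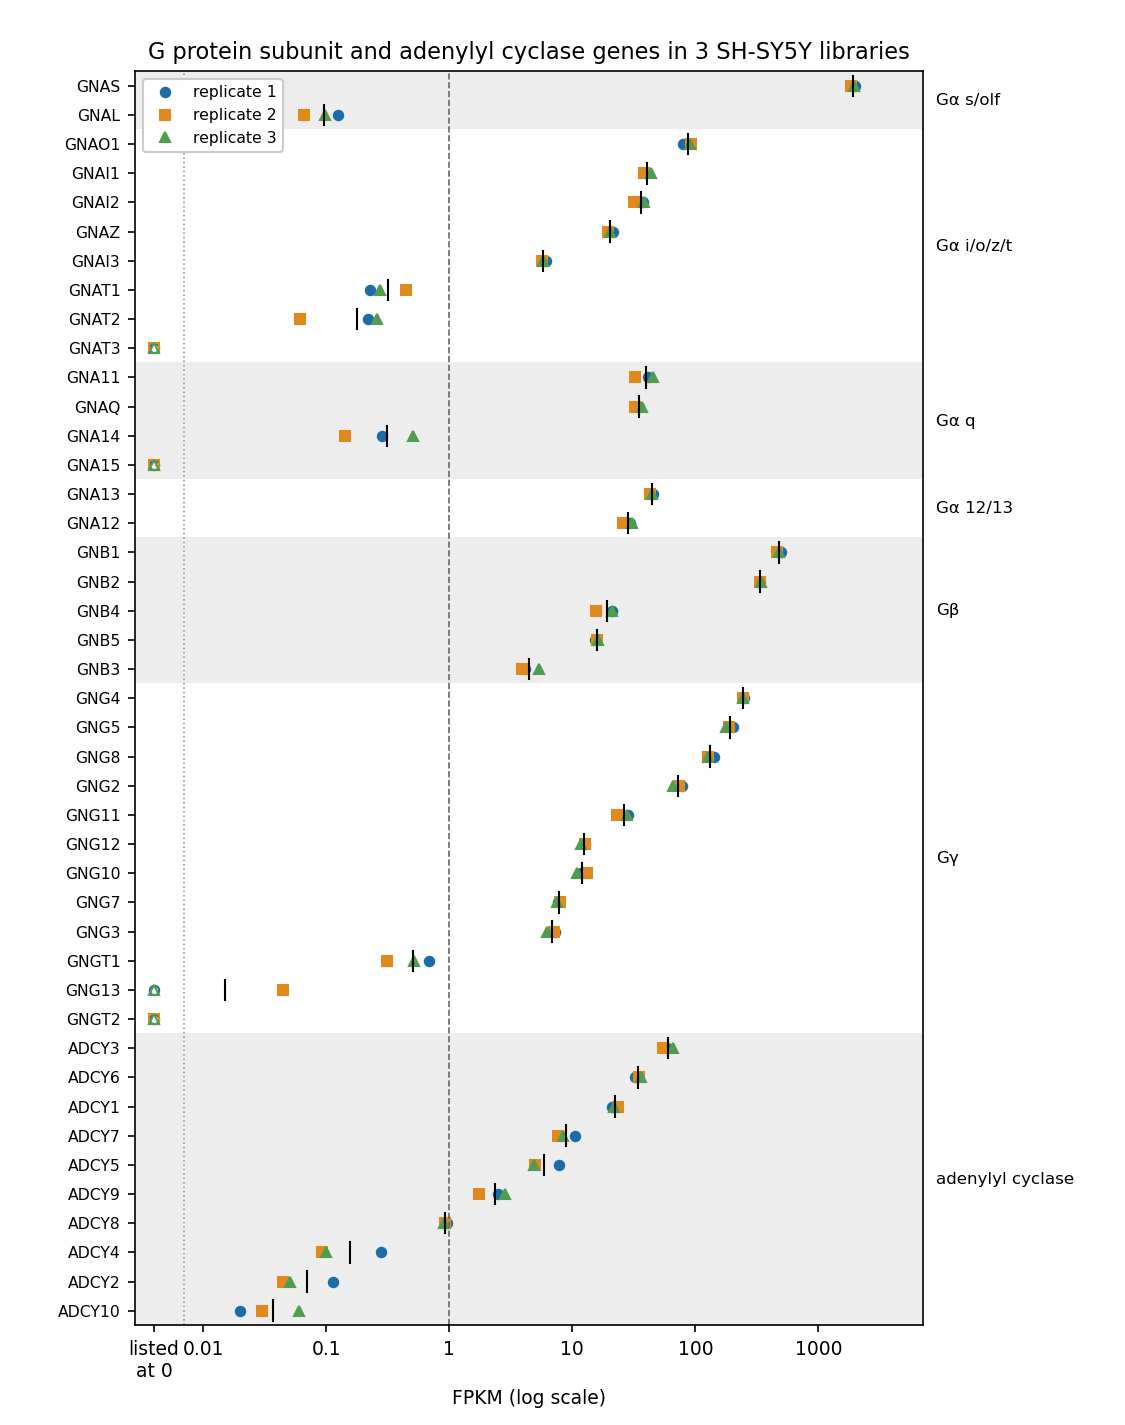
FPKM of each member in each of the 3 libraries, on a log axis, by class (Gα, Gβ and Gγ are the alpha, beta and gamma subunits). Points are libraries, black bars are means, open points at the left edge are values listed at 0, and the dashed line is 1 FPKM; GNAS lies alone near 1916 FPKM, and GNA15, GNAT3 and GNGT2 are listed at 0 in all 3 libraries.

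GNAS, which encodes alpha s, stood far above every other member. It had 1971, 1840 and 1939 FPKM in replicates 1, 2 and 3, a mean of 1916 ± 68.6 FPKM and rank 52 of 19680 protein-coding genes (10.77 above the level on the log2 scale, with an SE of 0.0687 and a limma adjusted p = 2.99e-05). It held 85.4%, 85.2% and 84.4% of the summed FPKM of all alpha subunit genes. Replicate 2 was the lowest of the 3 libraries, and all 3 lay far above the next alpha gene. GNAS lies on chromosome 20, 58839718 to 58911192, an imprinted locus whose alternative first exons also make the extra-large form of alpha s and the neuroendocrine secretory protein NESP55. The deposited value covers the whole gene, so the forms cannot be told apart here. The antisense genes of the locus averaged 2.73 ± 0.946 FPKM (AL121917.1), 0.798 ± 0.228 (GNAS-AS1) and 0.0827 ± 0.143 (AL121917.2). GNAL, the alpha subunit of olfactory neurons and striatum, had 0.124, 0.066 and 0.098 FPKM and was called below (limma adjusted p = 0.000276). Within libraries GNAL lay below GNAS by a log2 difference of -13.27 ± 0.17. Of 6 genes that overlap the GNAL locus, 3 were listed at 0 and 3 were higher than GNAL, CHMP1B at 16.4 FPKM, CHMP1B-AS1 at 45.9 and MPPE1, which shares 26.8% of GNAL's exonic bases on the other strand, at 11.96.

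In the inhibitory class, alpha o led and the alpha i genes followed. GNAO1, the alpha o gene, had 79.7, 92.4 and 90.8 FPKM (mean 87.6 ± 6.89, limma adjusted p = 2.99e-05). GNAI1 had 39.8, 38.0 and 44.0 FPKM and GNAI2 37.7, 31.5 and 38.4. GNAO1 was above both in every library, with no overlap, while the ranges of GNAI1 and GNAI2 overlapped. GNAO1 exceeded GNAI2 by 1.29 ± 0.24 on the log2 scale, and GNAI2 lay below GNAI1 by a log2 difference of -0.18 ± 0.10, below it in each of the 3 libraries. GNAZ, a toxin-resistant inhibitory subunit known from neurons and platelets, averaged 20.3 ± 0.893 FPKM, and it shares 7.14% of its exonic bases with RSPH14 on the other strand (28.5 FPKM). GNAI3, the third alpha i gene, averaged 5.83 ± 0.252 FPKM, and GNAI2 exceeded it by 2.60 ± 0.13. GNAI3 has the longest annotated transcript of the members, 27174 bases in GENCODE 29, and FPKM divides by length, so its value depends on the transcript length the authors used, which no source used here gives. AMPD2, which overlaps 132 of its exonic bases, stood at 49.9 FPKM.

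The transducins, the alpha subunits of rod, cone and taste cells, were near the bottom of the table. GNAT1 had 0.226, 0.448 and 0.272 FPKM and GNAT2 0.217, 0.061 and 0.26, both called below with ranges that overlapped, and GNAT3 was listed at 0, where 3 reads on its transcript would give 0.144 FPKM in replicate 1. GNAT2 shares 97.0% of its exonic bases with GNAI3 on the other strand, and since no source used here says whether reads were counted by strand, reads of the pair cannot be told apart. GNAT3 lies on the other strand within the CD36 locus (0.228 FPKM), with 0 exonic bases shared.

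The phospholipase class was carried by a pair of genes at close to equal levels. GNA11 had 41.1, 32.3 and 44.9 FPKM and GNAQ had 34.9, 32.0 and 37.1. GNA11 was higher in each of the 3 libraries, but the ranges overlapped, and the log2 difference of 0.17 ± 0.14 was 0.01 in replicate 2. GNAQ shares 4.39% of its 50-base windows with the pseudogene GNAQP1, which stood at 0.285 FPKM. GNA14, a relative found in few tissues, had 0.282, 0.143 and 0.512 FPKM and was called below (limma adjusted p = 0.0157), which no longer held when replicate 1 was left out (limma adjusted p = 0.0673). GNA15, the relative known from blood cells, was listed at 0, and its antisense neighbour AC005264.1 stood at 0.00533 FPKM. In the 12/13 class, GNA13 had 44.9, 42.7 and 44.5 FPKM and GNA12 had 29.6, 25.6 and 30.3, with no overlap and a log2 difference of 0.63 ± 0.10. Without GNAS, the alpha subunits summed to 338 ± 18.5 FPKM, of which the inhibitory class held 56.5% ± 1.79, the alpha q class 22.0% ± 1.60 and the 12/13 class 21.5% ± 0.621.

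Of the beta subunits, which form propeller-shaped partners of gamma, GNB1 and GNB2 made up 95.4% ± 0.344 of the class. GNB1 (chromosome 1, 1785285 to 1891117) had 492, 463 and 476 FPKM and GNB2 335, 334 and 343, at ranks 183 and 254 of protein-coding genes. GNB2 lay below GNB1 by a log2 difference of -0.50 ± 0.05 and was lower in each of the 3 libraries. GNB4 had 21.1, 15.6 and 20.8 FPKM and GNB5, the atypical subunit that pairs with the R7 group of RGS proteins, averaged 15.8 ± 0.374. GNB5 was above GNB4 in replicate 2 and below it in replicates 1 and 3, so their order is not fixed by these libraries. GNB3, known from cones and taste cells, was lowest at 4.45 ± 0.757 FPKM. All 5 beta genes were called above 1 FPKM, beside 70.6% of protein-coding genes tested. GNB4 shares 27.6% of its exonic bases with AC007620.2 (25.7 FPKM) and GNB3 shares 15.97% with CDCA3 (22.1 FPKM), each on the other strand.

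Of the gamma subunits, the small lipid-anchored partners of beta, 9 of 12 were called above, beside 70.6% of protein-coding genes tested. GNGT2, listed at 0, was not tested. GNG4, known from brain, had 246, 243 and 244 FPKM, the smallest spread of the members with a value above 0 (SD of log2 values 0.009). GNG5, a gamma gene of many tissues, had 203, 187 and 179 FPKM. GNG8, known from olfactory and vomeronasal neurons of rodents, had 141, 127 and 127 FPKM. The order GNG4, GNG5, GNG8 held in each library with no overlap. The annotated GNG8 transcript is 216 bases long, hardly longer than the 200 bases assumed for a fragment, so its FPKM rests on a very short effective length. GNG5 shares 33.9% of its 50-base windows with the overlapping transcript AL359762.3, for which no value was analysed here. GNG4, GNG5 and GNG8 together held 80.4% ± 0.395 of the class, and without GNG8 in the sum GNG4 held 42.8% ± 1.38 and GNG5 33.1% ± 0.904.

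GNG2, an early studied gamma subunit of brain, had 77.9, 74.0 and 65.8 FPKM, and GNG11, the farnesyl type shown above, 28.1, 22.9 and 27.8. GNG12 (12.4 ± 0.619 FPKM) and GNG10 (11.9 ± 1.13), both of many tissues, could not be ordered, since GNG10 was higher in replicate 2. GNG10 shares 72.0% of its 50-base windows with other genes, most of them with the read-through gene DNAJC25-GNG10, which stood at 12.9 ± 1.76 FPKM, so the split between the pair is uncertain. GNG7 (7.76 ± 0.223 FPKM), known from striatum, and the neuronal GNG3 (6.87 ± 0.545) followed. GNG3 is a short gene that shares 50.7% of its exonic bases with BSCL2 on the other strand (68.7 FPKM). GNG4 exceeded GNG3 by 5.14 ± 0.11 on the log2 scale and GNG2 exceeded it by 3.38 ± 0.03. GNGT1, the rod gamma gene, had 0.688, 0.311 and 0.516 FPKM and was called below (limma adjusted p = 0.0262), which no longer held when replicate 2 (adjusted p = 0.0524) or replicate 3 (0.0896) was left out, or with no filter on low values (0.0631). It overlaps TFPI2 (62.9 FPKM) by 44 exonic bases and AC002075.2 (4.02 FPKM) outside its exons. GNG13, of taste and retinal bipolar cells, was listed at 0 in replicates 1 and 3 and at 0.045 FPKM in replicate 2, about 1 read, beside CHTF18 on the other strand at 36.2. GNGT2 was listed at 0.

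**Figure D2:**
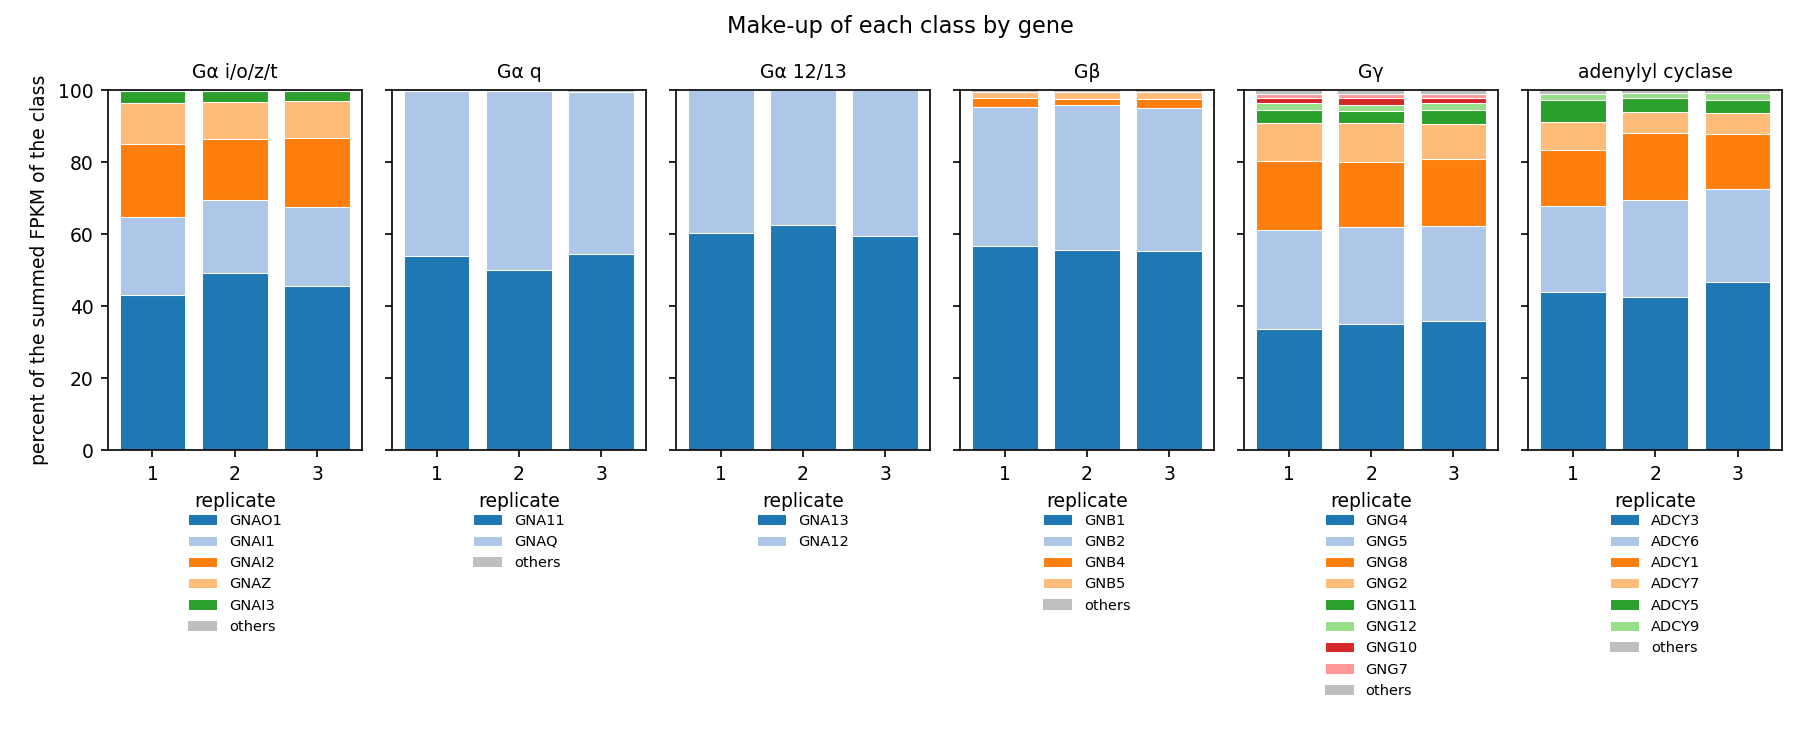
Percent of the summed FPKM of a class held by each gene in replicates 1, 2 and 3, for 6 classes; genes under 1% on average are pooled as others, and alpha s/olf is left out because GNAS holds 99.995% of it. The make-up is close in the 3 libraries: GNB1 ranges from 55.2% to 56.7% of beta, GNG4 from 33.5% to 35.9% of gamma and ADCY3 from 42.4% to 46.7% of adenylyl cyclase.

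A G protein holds its subunits in equal number, and the summed levels of the classes can be set beside that. The alpha genes summed to 2254 ± 81.9 FPKM, the beta genes to 854 ± 19.2 and the gamma genes to 704 ± 28.5. Alpha exceeded beta 2.64 ± 0.0375 times, and without GNAS it reached 0.395 ± 0.0164 of beta. Beta exceeded gamma 1.21 ± 0.0466 times, or 1.49 ± 0.0560 times without GNG8. These are RNA levels per length and say nothing of protein amounts. GNAS alone was 10.1 ± 0.521 times the sum of the inhibitory class and 14.3 ± 0.509 times the sum of all adenylyl cyclases.

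Of 10 adenylyl cyclases, the enzymes that make cyclic AMP, 6 were called above 1 FPKM and 3 below. Among protein-coding genes tested, 70.6% were called above and 24.6% below, so these counts lie near those shares. ADCY3 (chromosome 2, 24819169 to 24919839), a form that calcium and calmodulin can stimulate and known from the cilia of olfactory and other neurons, had 58.3, 54.5 and 65.8 FPKM. ADCY6, a form inhibited by calcium, had 32.0, 34.97 and 36.3 FPKM. ADCY1, the calcium-stimulated form of brain, had 20.9, 23.6 and 21.6 FPKM. The order ADCY3, ADCY6, ADCY1 held in every library without overlap, and the 3 genes held 86.4% ± 2.58 of the class. CENPO, on the other strand (20.7 FPKM), shares 24.6% of the exonic bases of ADCY3. ADCY3 exceeded ADCY1 by 1.43 ± 0.20 on the log2 scale.

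ADCY7, stimulated by beta-gamma, had 10.4, 7.63 and 8.38 FPKM, but 41.6% of its exonic bases overlap BRD7 on the other strand (57.8 FPKM). ADCY5, the relative of ADCY6 that dominates in striatum, had 7.83, 5.02 and 4.88 FPKM, and ADCY6 exceeded it by 2.55 ± 0.47 on the log2 scale. The ranges of ADCY7 and ADCY5 overlapped, with ADCY7 higher in each library. ADCY9, the form least sensitive to forskolin, had 2.47, 1.75 and 2.81 FPKM (limma adjusted p = 0.00635 for a level above 1). ADCY8, the calcium-stimulated relative of ADCY1, had 0.959, 0.929 and 0.899 FPKM and could not be placed on either side of 1 FPKM (log2 -0.10, SE 0.0673, limma adjusted p = 0.253). It was called below when the values were rescaled to TPM, which lowers every gene of a library (log2 -0.53, limma adjusted p = 0.00394), and with no filter on low values (limma adjusted p = 0.0446). ADCY1 exceeded ADCY8 by 4.42 ± 0.11.

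ADCY4 averaged 0.156 ± 0.105 FPKM and ADCY2 0.0697 ± 0.0376, both stimulated by beta-gamma and both called below. Both were highest in replicate 1 (0.277 and 0.113 FPKM), and their ranges overlapped. The soluble, bicarbonate-sensitive ADCY10 averaged 0.0367 ± 0.0208 FPKM, with a range that overlapped that of ADCY2. Its antisense neighbour Z99943.1 averaged 0.0823 FPKM and was above ADCY10 in replicate 2 and below it in replicates 1 and 3. Grouped by their known regulation, the forms that calcium can stimulate (ADCY1, ADCY3 and ADCY8) held 61.4% ± 1.29 of the class. Most of that was ADCY3, which alone held 44.3% ± 2.21. The calcium-inhibited forms (ADCY5 and ADCY6) held 30.1% ± 0.963 and the beta-gamma-stimulated forms (ADCY2, ADCY4 and ADCY7) 6.74% ± 1.201.

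**Figure D3:**
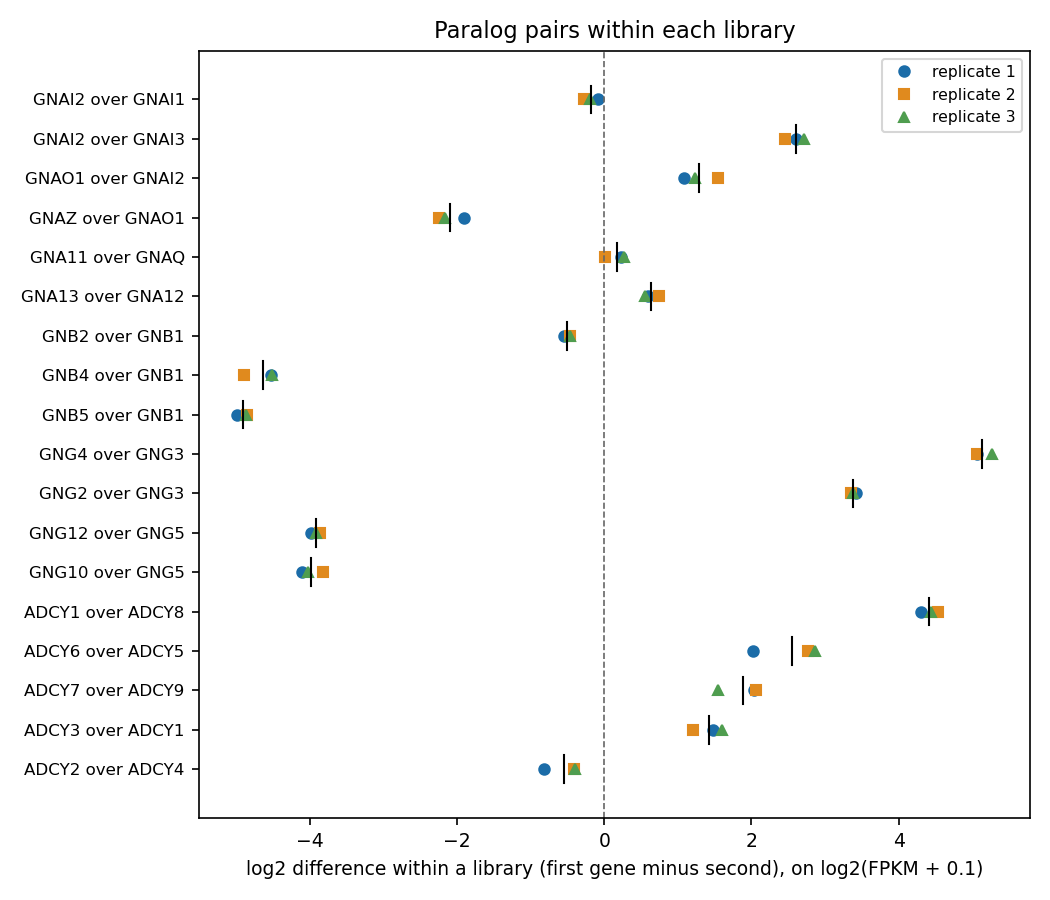
Within-library log2 difference between paralogs or genes of a shared role, on log2(FPKM + 0.1), for 18 of the 19 pairs; points are libraries, black bars are means, the dashed line is no difference, and GNAL over GNAS (-13.27) lies outside the axis and is not drawn. Every pair has its 3 points on 1 side of 0, with GNAI2 over GNAI1 (-0.18) and GNA11 over GNAQ (0.17) the nearest to it.

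Each of the 19 pairs compared had the same sign in 3 of 3 libraries, with an exact two-sided sign-flip p = 0.25 before and after Benjamini-Hochberg adjustment over the 19. That is the smallest p that 3 libraries allow, so none could pass a threshold of 0.05. ADCY6 over ADCY5 had the largest spread (SD 0.47) and GNG2 over GNG3 the smallest (SD 0.03). Other pairs not yet given were GNAZ below GNAO1 by -2.10 ± 0.18, GNB4 below GNB1 by -4.64 ± 0.21, GNB5 below GNB1 by -4.91 ± 0.07, GNG12 below GNG5 by -3.92 ± 0.06, GNG10 below GNG5 by -3.98 ± 0.14, ADCY7 above ADCY9 by 1.88 ± 0.29 and ADCY2 below ADCY4 by -0.54 ± 0.24 (log2 differences). No 50-base window, the read length, of any member's principal transcript occurred in a transcript of another member, so reads of this length do not pass between paralogs by identical sequence. In 31 of 43 members no window occurred in any other gene on the same sense, and in ADCY4, GNG10 and GNG5 over 5% did.

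Between flasks the members varied about as much as other genes of their level. The median SD of log2 values was 0.092 for the 23 members at a mean of at least 10 FPKM, beside 0.095 for all 9019 genes at that level. It was 0.231 for 7 members between 1 and 10 FPKM, beside 0.186 for 7091 genes. ADCY5 (SD 0.376), ADCY9 (0.337) and GNB4 (0.248) varied most among members at 1 FPKM or more. ADCY5 was highest in replicate 1, while ADCY9 and GNB4 were lowest in replicate 2. Replicate 2 held the lowest value of 18 of 30 members at 1 FPKM or more and replicate 1 the highest of 14, with median log2 deviations of -0.048 in replicate 2, 0.043 in replicate 1 and 0.017 in replicate 3. Replicate 2 also had the largest summed FPKM of the table (1457403, beside 1389791 and 1375659 in replicates 1 and 3). The part of that sum in the lower values was not tested.

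**Figure D4:**
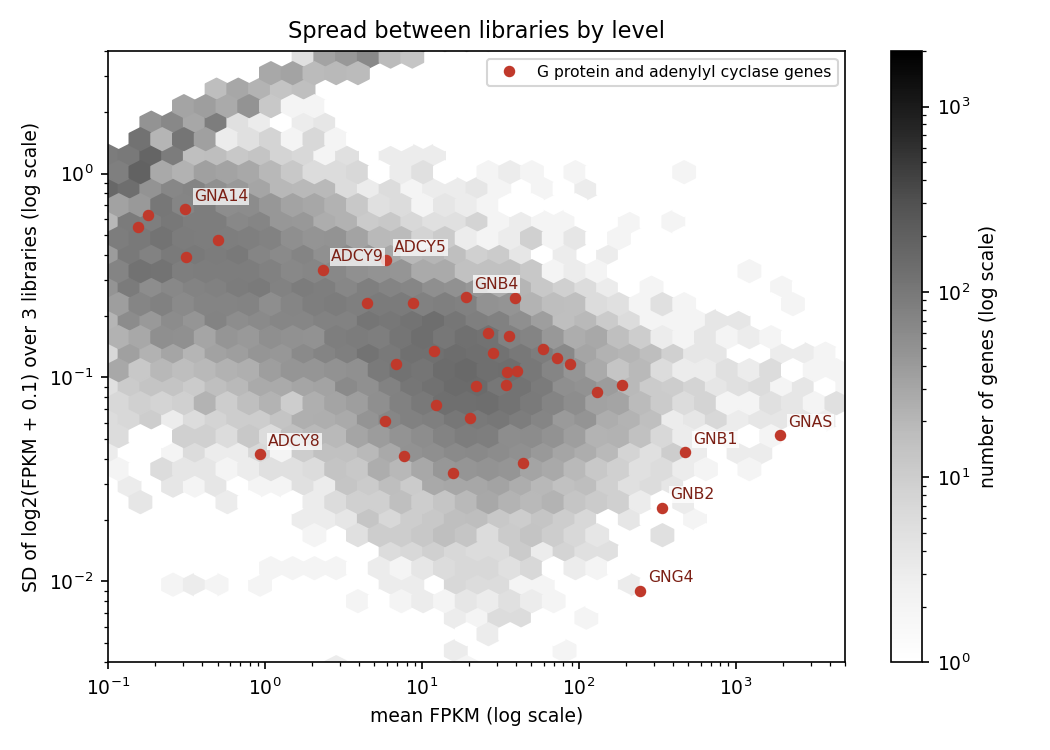
SD of log2(FPKM + 0.1) over the 3 libraries against mean FPKM, both on log axes; grey hexagons count all genes averaging 0.1 FPKM or more, and red points are the members at that level. The members lie within the cloud of genes, with GNG4 (SD 0.009) at its lower edge and ADCY5 (0.376) toward the upper edge.

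Across 9 lists of genes that act beside the members, 73 of 93 genes were called above 1 FPKM and 12 below. Of the rest, 3 were called neither, and 5 were listed at 0 and not tested. Among all protein-coding genes tested, 70.6% were called above and 24.6% below, and each list count stands beside those shares. Downstream of cyclic AMP, among 10 protein kinase A genes (median 36.5 FPKM), 8 lay above 1 FPKM by the test and 1 below. The regulatory subunit gene PRKAR1A (179 ± 9.70 FPKM) was highest, followed by PRKAR1B and the catalytic subunit gene PRKACA (both 46.4). The inhibitor gene PKIB (0.469 ± 0.229 FPKM) was called below (limma adjusted p = 0.0348) and PRKACG was listed at 0. The PKIB call was lost without replicate 1, without replicate 3, with a pseudocount of 0.01 and at a level of 0.5 FPKM. Of 10 EPAC and CREB genes 9 were called above, led by the coactivator gene CRTC2 (66.4 ± 12.6 FPKM), CREB1, which had values in 2 libraries (42.8 and 45.6), and RAPGEF4, the EPAC2 gene (27.2 ± 1.84). RAPGEF3, the EPAC1 gene (0.640 ± 0.106 FPKM), was the 1 called below, and that call was lost without replicate 1, without replicate 2 and at a level of 0.5 FPKM.

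Phosphodiesterases, which break down cyclic AMP, had a median of 2.83 FPKM, beside 36.5 FPKM for the protein kinase A genes. Of 16, 11 were called above and 4 below, near the 70.6% and 24.6% of protein-coding genes tested. The cyclic AMP-specific PDE7A (21.3 ± 1.31 FPKM) and PDE4B (16.1 ± 0.480) and the dual-specific PDE2A (14.1 ± 0.310) were highest. The calmodulin-dependent PDE1A (0.00633), PDE1B (0.0393) and PDE1C (0.001) and the dual-specific PDE11A (0.149) were called below, and PDE3A (1.096 ± 0.134 FPKM) was called neither. Without replicate 2, 2 of those 4 were still called below. PDE1A and PDE1B, listed at 0 in replicates 1 and 3, were not tested in that setting. The count above was 10 with a pseudocount of 0.01, with either rescaling, with no filter on low values and without any 1 of the replicates, and 5 at a level of 5 FPKM. Among 7 adenylyl cyclase partners, the calmodulin genes CALM2 (1728 ± 70.8 FPKM) and CALM3 (345 ± 10.4) were highest, 6 were called above, and the anchoring protein gene AKAP5 (0.861 ± 0.152) was called neither and lowest.

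**Figure D5:**
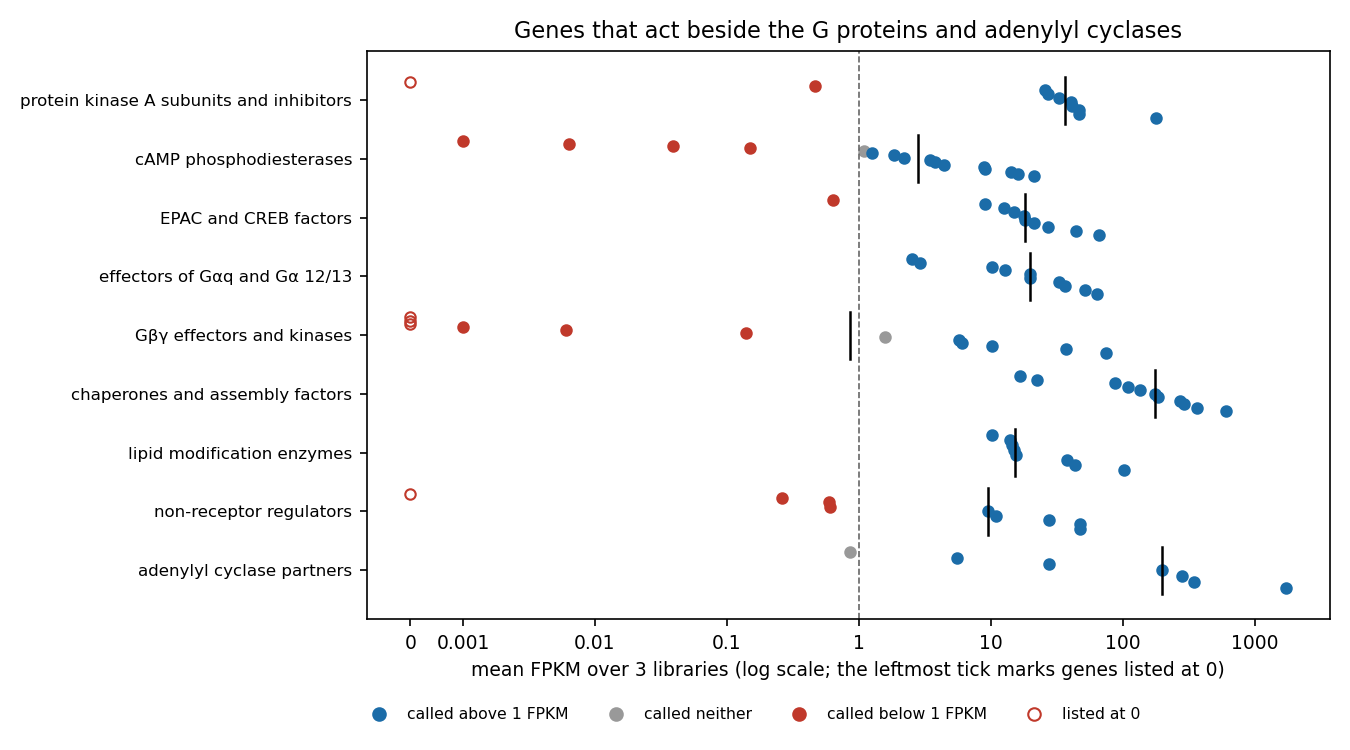
Mean FPKM over the 3 libraries, on a log axis, of the genes of 9 lists that act beside the members; each point is a gene coloured by its call against 1 FPKM (dashed line), and black bars are list medians. The chaperone list (median 175 FPKM) and the adenylyl cyclase partners (199) stand highest, and the beta-gamma effector list (0.858) lowest.

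All 10 effectors of alpha q and alpha 12/13 (median 19.9 FPKM) were called above 1 FPKM, beside 70.6% of protein-coding genes tested. Without replicate 2 the count was 9. The exchange factor genes TRIO (64.4 ± 6.99 FPKM), ARHGEF25 (52.2 ± 0.705) and ARHGEF1 (36.7 ± 0.565) were highest and PLCB2 (2.55 ± 0.825) lowest. The effectors of beta-gamma gave 5 of 12 called above and 3 below. The receptor kinase genes GRK3 (74.5 ± 3.07 FPKM) and GRK2 (37.0 ± 5.70) and the lipid kinase gene PIK3CB (10.2 ± 0.997) were highest. Of the potassium channel subunits opened by beta-gamma, KCNJ9 averaged 5.76 ± 0.370 FPKM and was called above, KCNJ3 averaged 1.58 ± 0.461 and was called neither (limma adjusted p = 0.0501), and KCNJ5 (0.140) and KCNJ6 (0.006) were called below. PREX2 (0.001 FPKM) was called below as well, and the lipid kinase genes PIK3CG, PIK3R5 and PIK3R6, known from white blood cells, were listed at 0.

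Genes that fold, assemble and anchor the subunits were all called above 1 FPKM, beside 70.6% of protein-coding genes tested. The 11 chaperones had a median of 175 FPKM, with the chaperonin subunit genes CCT7 (609 ± 45.3 FPKM), CCT5 (366 ± 24.4) and CCT3 (293 ± 15.8) highest, and RIC8B (16.7 ± 2.45), the chaperone of alpha s, lowest. RIC8A, the chaperone of the alpha i, q and 12/13 classes, stood at 86.9 ± 3.46 FPKM. The 8 lipid-modifying enzymes had a median of 15.3 FPKM, with NMT1 (102 ± 20.7 FPKM), which attaches myristate to the alpha i family, the prenyl transferase subunit FNTA (43.7 ± 4.07) and the methyltransferase ICMT (38.1 ± 3.17) highest and RCE1 (10.2 ± 1.88) lowest. Regulators that act without a receptor gave 5 of 9 called above and 3 below, with GPSM2 (47.7 ± 0.736 FPKM), CCDC88A (47.1 ± 5.66) and GPSM1 (27.5 ± 3.01) highest. RASD1 (0.260), GPSM3 (0.597) and RASD2 (0.602) were called below and PCP2 was listed at 0. Without replicate 2, without replicate 3 or at a level of 0.5 FPKM, 1 of the 3 was still called below.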

How the data were processed

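Stranded mRNA libraries of SH-SY5Y were made from 500 ng of total RNA and read as 50-base single reads, per the labels' protocols. Per the submitters' processing notes the build was hg38 and the tools were TopHat2 2.1.1, Cufflinks 2.2.1, FastQC 0.10.1 and bcl2fastq; no source used here gives their roles, the annotation or the strand setting. The deposited values are FPKM per Ensembl identifier, and 57046 of 60660 identifiers matched GENCODE 29 (GRCh38). Where several identifiers had the same name, as 154 names did, the one with the highest mean was kept. An FPKM of 0 can be a failed estimate, so it is called listed at 0.

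FPKM is not a count and was given no count model. A gene entered the test if any library held it above 0 and at least 2 libraries had a value. Its log2(FPKM + 0.1) was set against that of 1 FPKM by limma 3.58.1 (R 4.3.3; intercept as the only term, two-sided, Benjamini-Hochberg adjusted p under 0.05), on the whole table; the scale understates differences of low genes. Depth was estimated from genes with 1 annotated transcript of at least 600 bases, where 97.2%, 97.3% and 95.9% of 2703, 2991 and 3411 low values came to whole reads (tolerance 0.1), with an assumed fragment of 200 bases. Floors cover counting error only. Other steps used Python 3.11.15, pandas 2.3.3 and scipy 1.17.1.

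The members and lists were chosen with earlier results of these data known. Every member was to be named, with values of each library for the 3 highest of each class, members called neither and the 3 with the largest spread, and of each list the 3 highest, the lowest, and those called below or neither where 5 or fewer; genes overlapping a member were named where higher. Some genes the rule names are not reported here. Library values of other members were added after they were seen. Alternatives were pseudocounts of 1 and 0.01, median-ratio and TPM rescaling, other filters, levels of 0.5 and 5 FPKM, summed identifiers, each library left out, and shares of FPKM times exonic length.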

Additional observations from a re-analysis of the deposited data

How the results depend on the processing

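Of 40 members tested against 1 FPKM, 37 kept their call under every one of the 9 alternatives run for single genes that tested them. The exceptions, GNGT1, GNA14 and ADCY8, are given with their members. A filter at a mean of 0.1 FPKM leaves the lowest members out. In these settings no member or pair changed direction. The levels of 0.5 and 5 FPKM were not among the 9. At 5 FPKM, 26 members were called above and 11 below, and at 0.5 FPKM, 31 above and 6 below. The number of members called below was 9, and 5 with a filter at a mean of 0.1 FPKM, which removes low genes. The pathway lists held 12 genes called below, and 7 with that filter, 22 at a level of 5 FPKM, and 6 to 9 when each library in turn was left out, with 6 without replicate 2. In that last setting PDE1A, PDE1B and PREX2 held no value above 0 and were not tested. As shares of FPKM times exonic length, which weights long genes, GNAS held 99.997% of alpha s/olf, GNA13 56.4% of alpha 12/13, GNB1 69.8% of beta, GNG4 59.5% of gamma and ADCY3 32.3% of adenylyl cyclase. GNG4 held 42.8% of gamma with GNG8 left out, an alternative chosen after seeing the data. No paired analysis was possible because the study has 1 group. Values of a few reads, as in GNG13 and ADCY10, are limited by depth.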
